A study of Mus musculus with 12 samples.

Results

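The genes described here are 10 regulators of the G1 phase of the cell cycle, chosen by name: the D-type cyclins Ccnd1, Ccnd2 and Ccnd3, their kinases Cdk4 and Cdk6, the CIP/KIP inhibitors Cdkn1a, Cdkn1b and Cdkn1c, and the INK4 inhibitors Cdkn2c and Cdkn2d. All 10 were found among the 47072 genes in the table, and all 10 passed the filter on low values, which 18319 genes passed. Total RNA was sequenced from Pdgfra/GFP+ cells sorted by FACS from Pdgfra-H2BGFP mice, in 4 groups of 3 libraries: brain or spinal cord, each from embryos (E13.5) or from pups a week after birth (P7). All groups carry the same heterozygous knock-in, in which a nuclear GFP (H2B-eGFP) is driven by the Pdgfra promoter, no treatment is given, and the brain samples are (fore)brain. Each library pools cells of several animals. The GFP outlasts Pdgfra transcription into early oligodendrocyte (OL) differentiation, and at P7 only the brightest GFP cells were collected. Embryonic tissue was dissociated mechanically and P7 tissue with papain, so age and dissociation cannot be told apart.

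The passage from G1 into S phase is set by kinases that act with D cyclins. Mitogens such as PDGF, the main mitogen of oligodendrocyte precursor cells (OPCs), raise D cyclins, which pair with CDK4 or CDK6 and start the phosphorylation of the retinoblastoma protein RB, and this releases the E2F factors that drive S phase genes. INK4 proteins bind CDK4 and CDK6 and keep D cyclins away from them, whereas CIP/KIP proteins bind whole cyclin-CDK complexes and chiefly block CDK2. In the OL lineage, p27 (Cdkn1b) and p57 (Cdkn1c) are known for their part in withdrawal from the cell cycle before differentiation.

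Values are CPM, reads scaled to library size, as deposited. The libraries held between 12566345 and 38790312 reads, fewer at E13.5 (12566345 to 19903022) than at P7 (25276708 to 38790312), and 3 reads were worth 0.0792 to 0.506 CPM. E13.5 spinal cord replicate 3 stood apart, with 40.95% of its reads in protein-coding genes against 82.38% to 91.14% in the other 11 libraries, and results that turn on it are given without it as well. The deposited scaling sets the P7 brain libraries lower than a TMM scaling (trimmed mean of M values) of the same reads does, by 0.18 to 0.22 on the log2 scale, so that the median of all tested genes was -0.19 for P7 minus E13.5 in brain and -0.19 for brain minus spinal cord at P7, against -0.02 and -0.02 with TMM. In spinal cord the median difference of all genes between the ages was 0.12. Among markers fixed for the cell types that the gate could hold, those of OPCs (7 genes, with Pdgfra and Olig2) summed to 820.6 to 1451 CPM in E13.5 brain, 526.1 to 802.5 in E13.5 spinal cord and 9010 to 9712 CPM at P7. Of 12 neuronal markers 7 fell and 0 rose with age in brain, and 6 fell and 1 rose in spinal cord (medians -2.21 and -1.94). Of all genes 16.7% fell in brain and 18.2% in spinal cord. Tubb3 went from a mean of 329 to 38.1 CPM in brain and from 293 to 19.6 CPM in spinal cord. The sum of the neuronal markers, of which Map2 holds the most, nonetheless stayed at 1351 to 1899 CPM. Markers of microglia, endothelial cells and red blood cells summed to at most 49.93, 115.3 and 128.6 CPM. Those of astrocytes (6 genes) summed to 535.3 to 806.3 CPM in E13.5 brain and 565.4 to 688.0 in E13.5 spinal cord. At P7 they summed to 239.8 to 283.9 CPM in brain and 170.4 to 250.7 in spinal cord. Gja1, the most abundant of them at E13.5, went from a mean of 603 to 89.0 CPM in brain, whereas Aqp4 went from 0.281 to 31.6. No label says whether libraries came from separate litters, so p-values measure the spread between these pools. P7 replicates 1 and 2 were more alike than other pairs, with an SD of their log2 ratio over genes of 0.111 in brain and 0.112 in spinal cord, against 0.259 to 0.272 for the P7 pairs with replicate 3.

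Differences are given on the scale log2(CPM + 0.5), with standard errors from limma, and a gene is called where its Benjamini-Hochberg adjusted p over all tested genes was below 0.05 and the difference over 2-fold. Between E13.5 and P7 in brain 3 of the 10 genes were called, beside 27.7% of all tested genes: Cdkn2c was higher at P7 (as were 11.0% of all genes), and Ccnd2 and Cdkn1c were lower (as were 16.7%). In spinal cord 4 were called, beside 35.1% of all genes: Ccnd1, Cdkn2c and Cdkn2d were higher at P7 (16.9% of all genes) and Cdkn1c was lower (18.2%). Brain and spinal cord differed at E13.5 in 3 of the 10, beside 8.71% of all genes, with Ccnd1, Ccnd2 and Cdkn2c each higher in brain (3.53% of all genes, against 5.17% lower). At P7 the regions differed in 2 of the 10, beside 6.62% of all genes, Ccnd2 being higher (2.27%) and Cdkn1c lower (4.35%) in brain. The age-by-region interaction, which is the brain minus spinal cord difference at P7 less that at E13.5, was called in 3 of the 10, beside 16.3% of all genes, and all 3, Ccnd1, Cdkn1c and Cdkn2c, were negative (9.66% of all genes, against 6.66% positive).

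Without the requirement of 2-fold, 8 of the 10 passed the adjusted p for age in brain (61.3% of all genes), 6 for age in spinal cord (70.0%), 5 for region at E13.5 (32.6%), 5 for region at P7 (30.0%) and 8 for the age-by-region interaction (39.8%). With TMM these counts of members were 7, 6, 5, 4 and 7. In both age comparisons the share of members that passed therefore lay near that of all genes. The median of the 10 differences was -0.23 for age in brain and 0.36 for age in spinal cord, beside -0.19 and 0.12 over all genes. It was 0.45 for region at E13.5 (all genes 0.05), -0.31 for region at P7 (all genes -0.19) and -0.87 for the age-by-region interaction (all genes -0.24). With TMM the last of these was -0.68, beside -0.07 over all genes.

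**Figure D1:**
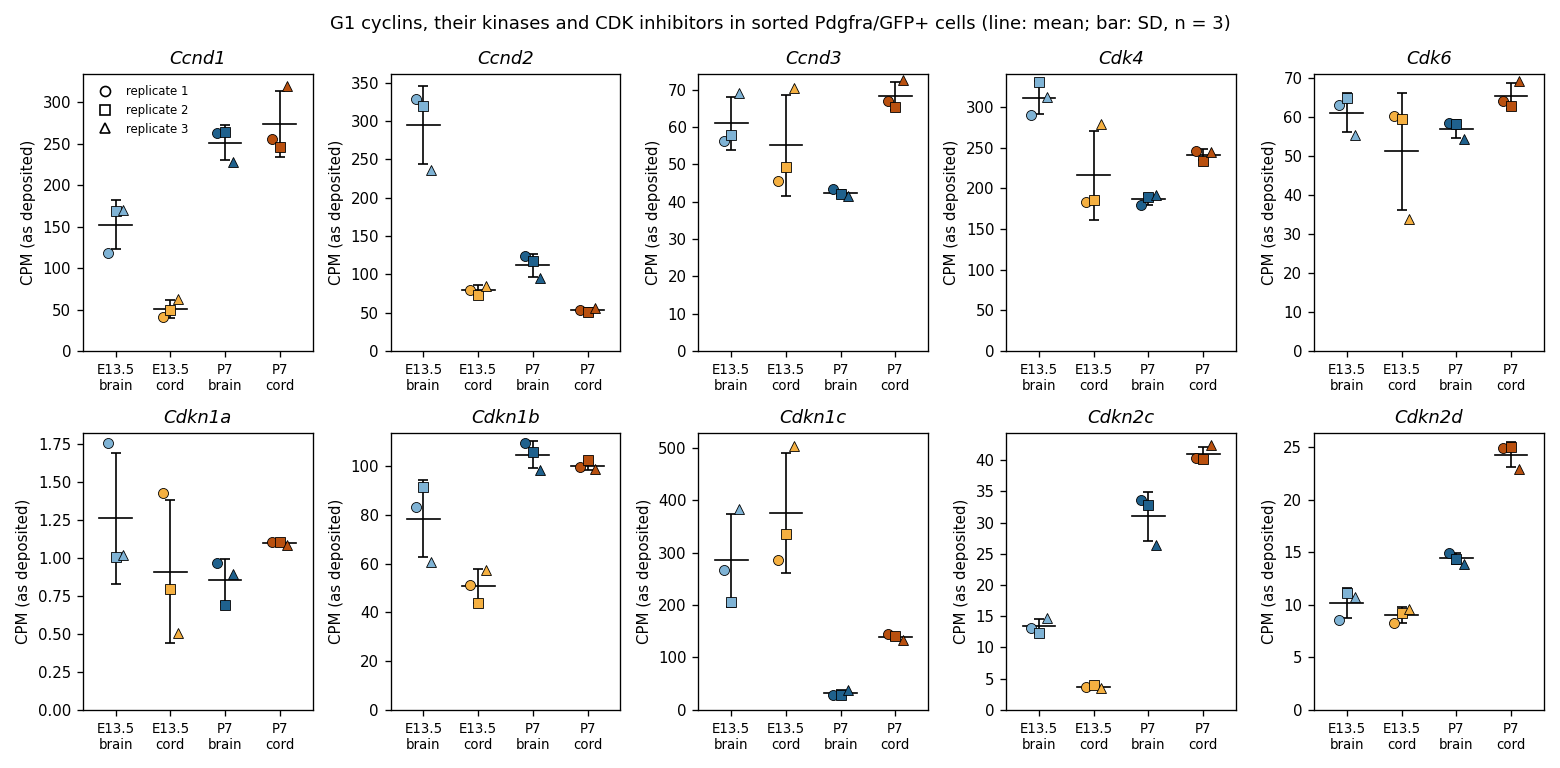
CPM of each of the 10 genes in each of the 12 libraries, on linear axes that start at 0, by group, with 1 panel per gene, 1 point per library (its shape gives the replicate), the group mean as a line and the SD as a bar (n = 3). Ccnd2 and Cdkn2c have 4 groups that do not overlap, and E13.5 spinal cord replicate 3 lies away from its 2 partners for Cdk4 (279 CPM against 183 and 186) and Cdk6 (33.9 CPM against 60.2 and 59.4).

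The D cyclins moved in different directions with age. Ccnd1, which encodes cyclin D1, rose in spinal cord, Ccnd2, which encodes cyclin D2, fell in brain, and Ccnd3, which encodes cyclin D3, was called in neither tissue. Ccnd1 (ENSMUSG00000070348, chromosome 7, 144929931 to 144939925 in mm10, minus strand) stood at 118, 169 and 169.5 CPM in E13.5 brain and at 41.1, 50.1 and 62.6 CPM in E13.5 spinal cord. At P7 it stood at 262, 264 and 227 CPM in brain and at 256, 245 and 319 CPM in spinal cord. At E13.5 every brain library was above every spinal cord library, whereas at P7 the regions overlapped. The P7 minus E13.5 difference of Ccnd1 was 2.41 ± 0.17 in spinal cord (limma adjusted p = 8.5e-08) and 0.74 ± 0.17 in brain (adjusted p = 0.0027, under 2-fold). Its brain minus spinal cord difference was 1.56 ± 0.17 at E13.5 (limma adjusted p = 3.1e-05) and -0.12 ± 0.17 at P7 (adjusted p = 0.66). The change between these differences was -1.68 ± 0.25 (limma adjusted p = 0.00025), or -1.49 with TMM.

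Ccnd2 (ENSMUSG00000000184, chromosome 6, 127125162 to 127152193, minus strand) was the D cyclin called between the regions at both ages. E13.5 brain libraries held 329, 320.0 and 237 CPM, and E13.5 spinal cord libraries 79.9, 72.8 and 85.4 CPM. By P7 they held 124, 118 and 95.2 CPM in brain and 54.2, 51.3 and 56.1 CPM in spinal cord. None of the 4 groups overlapped. Ccnd2 fell by 1.39 ± 0.13 on the log2 scale with age in brain (limma adjusted p = 2.0e-06, and -1.20 with TMM). In spinal cord the difference was -0.55 ± 0.13 (limma adjusted p = 0.0026), which passed the adjusted p and not the fold. It was higher in brain by 1.88 ± 0.13 at E13.5 (limma adjusted p = 7.8e-07) and by 1.04 ± 0.13 at P7 (adjusted p = 0.00012). The call at P7 lies close to the fold threshold, since without P7 brain replicate 1 the difference was 0.97 with P7 replicates 1 and 2 averaged it was 0.97, and with TMM it was 1.23.

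Markers of OPCs and of neural progenitors were also higher in brain at E13.5, where Ccnd1, Ccnd2 and Cdkn2c were. Of the 7 OPC markers 5 were called higher in brain, beside 3.53% of all genes. At any fold 7 were higher, where 32.6% of all genes passed in either direction. The 8 markers of neural progenitors summed to 1752 to 2157 CPM in E13.5 brain and to 1206 to 1314 in E13.5 spinal cord, and 3 of them were called higher in brain, Sox2 by 2.02, Pax6 by 2.08 and Nes by 1.25 on the log2 scale. At P7 they summed to 1348 to 1855 CPM in brain and 1026 to 1076 in spinal cord. With age 3 fell in brain, as Ccnd2 did, Vim (-2.95), Pax6 (-2.45) and Nes (-2.13), while 2 rose, and in spinal cord 3 fell and 4 rose. Of all genes 16.7% fell and 11.0% rose in brain, and 18.2% fell and 16.9% rose in spinal cord. The part of OPCs and neural progenitors in the levels of the D cyclins and Cdkn2c was not tested.

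Ccnd3 (ENSMUSG00000034165, chromosome 17, 47505051 to 47599691, plus strand) varied least among the D cyclins. Its level was 56.2, 57.8 and 69.1 CPM in E13.5 brain and 45.6, 49.2 and 70.5 CPM in E13.5 spinal cord. At P7 it was 43.3, 42.1 and 41.6 CPM in brain and 66.8, 65.3 and 72.5 CPM in spinal cord. As deposited, the P7 brain libraries lay below all 9 others. With TMM they held 50.35, 47.6 and 47.1 CPM and overlapped with the E13.5 spinal cord libraries. The brain minus spinal cord difference of Ccnd3 was -0.68 ± 0.14 at P7 (limma adjusted p = 0.0033, and -0.49 with TMM), against 0.17 ± 0.14 at E13.5 (adjusted p = 0.40). Without E13.5 spinal cord replicate 3, which held the 70.5 CPM, its age-by-region interaction moved from -0.85 ± 0.20 to -1.04 and was called.

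Within a library the ratio of 2 genes does not depend on the scaling. For each read of Ccnd2 there were 0.359 to 0.716 reads of Ccnd1 in E13.5 brain, 0.515 to 0.733 in E13.5 spinal cord, 2.12 to 2.39 in P7 brain and 4.72 to 5.69 in P7 spinal cord. By reads the order of the pair was Ccnd2 over Ccnd1 in all 6 E13.5 libraries and Ccnd1 over Ccnd2 in all 6 P7 libraries. Per kilobase of transcript the order at E13.5 varied between libraries. The ratio of Ccnd1 to Ccnd2 was then 0.61 to 1.21 in brain and 0.87 to 1.24 in spinal cord. Per kilobase of the longest coding transcript, Ccnd1 made up 28.7% to 39.3% of the D cyclin signal in E13.5 brain and 24.4% to 27.8% in E13.5 spinal cord, against 63.6% to 64.7% and 62.7% to 66.4% at P7. The share of Ccnd2 went from 32.4% to 47.2% in E13.5 brain to 15.7% to 17.7% in P7 brain, and from 21.2% to 27.9% to 6.90% to 7.89% in spinal cord. Ccnd3 held the largest share of the 3 in every E13.5 spinal cord library, at 47.7% to 52.5%. That order depends on the length used, since over the joined exons of all transcripts the means there were 10.9 CPM per kilobase for Ccnd1, 8.44 for Ccnd2 and 6.28 for Ccnd3.

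**Figure D2:**
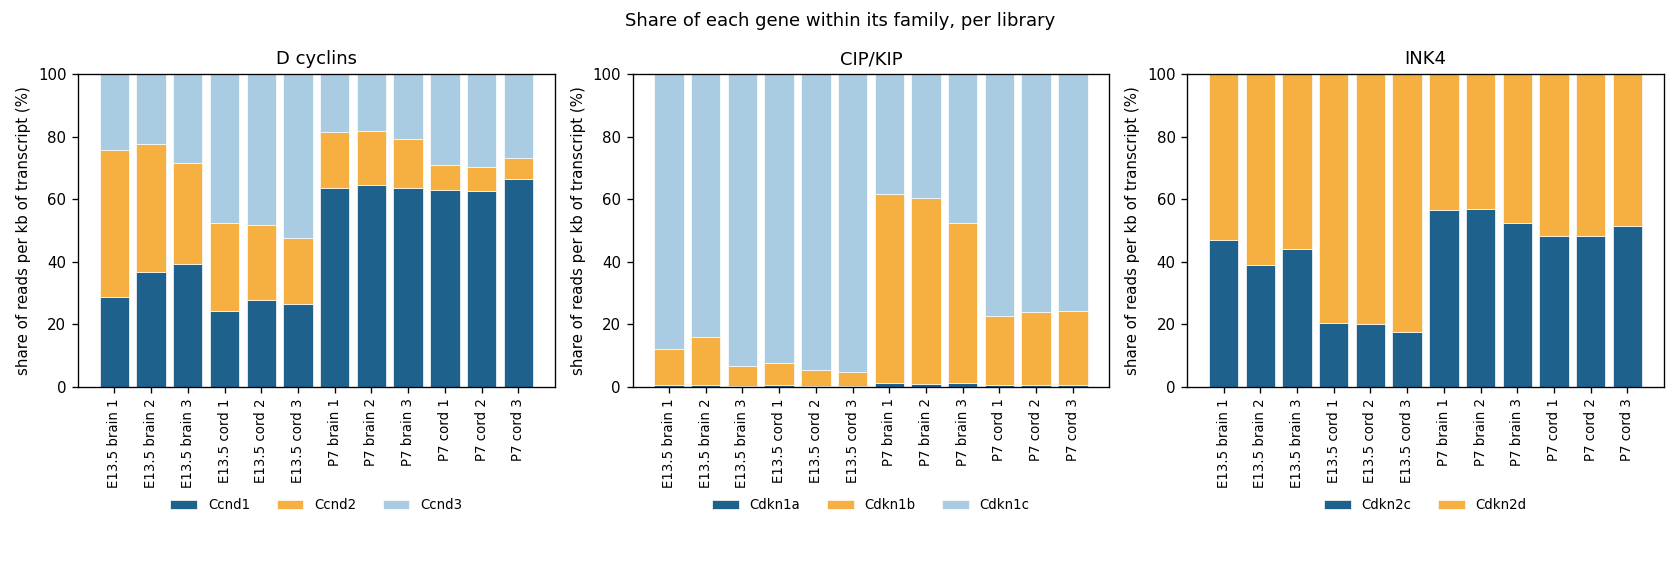
Share in percent of each family's summed CPM per kilobase held by each D cyclin, CIP/KIP inhibitor and INK4 inhibitor, as stacked bars with 1 bar per library. Ccnd1 holds 62.7% or more of the D cyclin signal in all 6 P7 libraries, and Cdkn1b exceeds Cdkn1c only in the P7 brain libraries.

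Of the kinases, Cdk4 was the more abundant, and neither was called in any of the 5 comparisons. Cdk4 (ENSMUSG00000006728, chromosome 10, 127063534 to 127067920, plus strand), the main D cyclin partner in many tissues, measured 290.5, 331 and 313 CPM in E13.5 brain and 183, 186 and 279 CPM in E13.5 spinal cord. At P7 it measured 179, 189 and 191.5 CPM in brain and 246, 233.5 and 245 CPM in spinal cord. Every E13.5 brain library was above every E13.5 spinal cord library, and at P7 the order of the regions was the opposite. Cdk4 differed by -0.74 ± 0.14 with age in brain (limma adjusted p = 0.00061) and by 0.19 ± 0.14 in spinal cord (adjusted p = 0.25), neither over 2-fold. The brain minus spinal cord difference was 0.55 ± 0.14 at E13.5 (limma adjusted p = 0.0096) and -0.37 ± 0.14 at P7 (adjusted p = 0.065). The age-by-region interaction of Cdk4 was -0.92 ± 0.20 (limma adjusted p = 0.0031), and without E13.5 spinal cord replicate 3 it was -1.12 and called.

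Cdk6 (ENSMUSG00000040274, chromosome 5, 3341485 to 3531008, plus strand) encodes the kinase that shares the D cyclins with CDK4. At E13.5 it measured 55.5 to 64.9 CPM in brain and 33.9 to 60.2 CPM in spinal cord, and at P7 54.3 to 58.5 CPM and 62.9 to 69.1 CPM. None of its 5 differences passed the adjusted p, the smallest adjusted p being 0.058 for age in spinal cord, where the limma difference was 0.40 ± 0.17. Reads of Cdk4 outnumbered those of Cdk6 by 3.05 to 8.23 times in every library, and per kilobase Cdk4 took 94.5% to 97.9% of the pair.

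The sequence before the RefSeq start of Cdk4 is shown because it was the stretch with the most motif matches among the members (chr10:127063285-127063533, plus strand, GRCm38.p6, printed up to the first annotated exon base). Capitals mark matches on either strand to the E box CACGTG, which MYC and related factors can bind, and to the GC box GGGCGG.
Cdk4: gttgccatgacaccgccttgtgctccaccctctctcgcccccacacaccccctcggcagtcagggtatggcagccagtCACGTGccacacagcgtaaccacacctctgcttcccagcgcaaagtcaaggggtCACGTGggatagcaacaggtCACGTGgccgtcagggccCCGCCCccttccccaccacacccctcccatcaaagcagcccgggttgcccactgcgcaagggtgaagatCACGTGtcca
It holds 4 E boxes and 1 GC box. Over all 32536 RefSeq promoter windows of the same 250 bases, 6.04% hold at least 1 such E box and 33.0% a GC box. No window of a member holds any of the E2F words TTTCCCGC, TTTGGCGC, TTTCGCGC or TTTGCCGC on either strand, which 1.87% of all windows hold. These matches are letters only. Promoter entries were found for 7 of the 10 genes, without Ccnd1, Ccnd2 and Cdkn1c.

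Of the CIP/KIP inhibitors, Cdkn1c fell with age in both tissues and Cdkn1b did not. Cdkn1c (ENSMUSG00000037664, chromosome 7, 143458339 to 143461050, minus strand) encodes p57 and is an imprinted gene expressed from the maternal allele. It reached 266, 206.5 and 382 CPM in E13.5 brain and 286, 335 and 504 CPM in E13.5 spinal cord. At P7 it was at 28.8, 29.4 and 38.1 CPM in brain and at 145, 140.5 and 133 CPM in spinal cord. The regions overlapped at E13.5 and were apart at P7. Cdkn1c fell by 3.10 ± 0.23 on the log2 scale in brain (limma adjusted p = 1.6e-07, and -2.91 with TMM) and by 1.38 ± 0.23 in spinal cord (adjusted p = 0.00014). At P7 it was lower in brain than in spinal cord, with a limma difference of -2.11 ± 0.23 (adjusted p = 3.2e-05, and -1.92 with TMM), against -0.40 ± 0.23 at E13.5 (adjusted p = 0.20). The age-by-region interaction was -1.71 ± 0.32 (limma adjusted p = 0.0012, and -1.52 with TMM).

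Markers of vascular and leptomeningeal cells, which also express Pdgfra in part, lay higher in the same E13.5 libraries. The 10 listed genes summed to 6158 to 9303 CPM in brain and 11720 to 13090 in spinal cord at E13.5, and to 1328 to 1724 in brain and 1269 to 2731 in spinal cord at P7. With age 7 of the 10 fell and 1 rose in brain, beside 16.7% and 11.0% of all genes, and 10 fell in spinal cord, beside 18.2%. At P7 2 of the 10 markers were called higher in brain (4 with TMM) and 0 lower, beside 2.27% and 4.35% of all genes. Their means ran in both directions, Vtn at 230 CPM in brain and 75.8 in spinal cord, Col3a1 at 435 and 810 CPM. The sum of the markers in the P7 spinal cord libraries was 1307, 1269 and 2731 CPM. In bulk RNA a smaller number of cells of one type and less RNA in each cell cannot be told apart. The part of vascular and leptomeningeal cells in the levels of Cdkn1c was not tested.

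Cdkn1b (ENSMUSG00000003031, chromosome 6, 134920401 to 134925513, plus strand) encodes p27. Its libraries stood at 83.0, 91.3 and 60.8 CPM in E13.5 brain and at 51.4, 43.7 and 57.5 CPM in E13.5 spinal cord. At P7 they stood at 109, 106 and 98.5 CPM in brain and at 99.5, 102 and 98.7 CPM in spinal cord. All 6 P7 libraries were above all 6 E13.5 libraries, and as deposited the regions overlapped only at P7. With TMM the P7 brain libraries held 127, 120 and 111 CPM, each above every P7 spinal cord library. The difference with age was 0.98 ± 0.14 in spinal cord (limma adjusted p = 3.8e-05), just below 2-fold, and without E13.5 spinal cord replicate 3 it was 1.07 and called. In brain it was 0.43 ± 0.14 (limma adjusted p = 0.016), or 0.62 with TMM. At E13.5 the brain minus spinal cord difference was 0.61 ± 0.14 (limma adjusted p = 0.0050). The P7 difference was 0.06 ± 0.14 (limma adjusted p = 0.79), or 0.25 with TMM.

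Relative to each other the pair changed order only in P7 brain. There were 0.159 to 0.442 reads of Cdkn1b for each of Cdkn1c in E13.5 brain, 0.114 to 0.180 in E13.5 spinal cord, 2.59 to 3.80 in P7 brain and 0.688 to 0.744 in P7 spinal cord. Per kilobase Cdkn1c made up 84.1% to 93.6% of the CIP/KIP signal in E13.5 brain and 92.6% to 95.4% in E13.5 spinal cord. At P7 its share was 38.2% to 47.6% in brain and 75.9% to 77.3% in spinal cord.

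The 250 bases before the start of Cdkn1b (chr6:134920151-134920400, plus strand, GRCm38.p6) are shown as the promoter window of the CIP/KIP gene with the highest level at P7 in brain. Capitals mark matches to the GC box GGGCGG and to CCAAT, the box bound by the factor NF-Y.
Cdkn1b: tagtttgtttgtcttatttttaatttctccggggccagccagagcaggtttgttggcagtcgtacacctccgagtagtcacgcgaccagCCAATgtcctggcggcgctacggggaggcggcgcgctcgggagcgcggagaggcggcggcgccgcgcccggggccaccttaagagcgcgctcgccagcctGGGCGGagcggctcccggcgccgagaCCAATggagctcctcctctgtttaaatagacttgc
It holds 1 GC box and 2 CCAAT boxes, which 33.0% and 33.8% of all windows hold at least once.

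Cdkn1a (ENSMUSG00000023067, chromosome 17, 29090976 to 29100727, plus strand), which encodes p21 and is a main target of p53, was the lowest of the 10 in every group. It was at 1.01 to 1.76 CPM in brain and 0.506 to 1.43 in spinal cord at E13.5, and 0.694 to 0.969 in brain and 1.09 to 1.11 in spinal cord at P7, from 3 to 41 reads in a library. None of its 5 differences passed the adjusted p, and the widest, the age-by-region interaction, was -0.59 ± 0.33 (limma adjusted p = 0.18). The level of E13.5 spinal cord replicate 3 rests on 3 reads.

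Other p53 targets moved in both directions. Of 12 tested from a list of 13, 2 rose and 2 fell with age in brain, and 5 rose and 1 fell in spinal cord, with medians of 0.35 and 0.95 beside -0.19 and 0.12 over all genes. Of all genes 11.0% rose and 16.7% fell in brain, and 16.9% rose and 18.2% fell in spinal cord. At any fold 6 of the 12 were higher and 2 lower at P7 in brain, and 10 were higher and 2 lower in spinal cord. Of all genes 61.3% passed at any fold in brain and 70.0% in spinal cord, in either direction. Bbc3, which encodes the death protein PUMA, rose by 1.36 ± 0.31 in brain (limma adjusted p = 0.0023), and Pmaip1, which encodes NOXA, fell by 1.91 ± 0.29 there (adjusted p = 8.7e-05). In spinal cord the receptor gene Eda2r rose by 2.84 ± 0.24 (limma adjusted p = 4.3e-07). Between regions 1 was higher in brain at E13.5 and 2 were lower in brain at P7, and 2 were called negative for the age-by-region interaction. With TMM, edgeR and voom the last 2 counts were 1 and 1, since Eda2r at P7 (-0.94 with TMM) and Aen for the interaction (-0.93) were not called. As deposited, 3.53% of all genes were higher in brain at E13.5, 4.35% lower at P7 and 9.66% negative for the interaction.

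Both INK4 inhibitors among the 10 genes were higher at P7. Cdkn2c (ENSMUSG00000028551, chromosome 4, 109660876 to 109667189, minus strand) encodes p18, which binds CDK4 and CDK6. It was at 13.1, 12.4 and 14.7 CPM in E13.5 brain and at 3.63, 4.0 and 3.54 CPM in E13.5 spinal cord, where those values rest on 61, 90 and 21 reads. At P7 it was at 33.7, 32.8 and 26.5 CPM in brain and at 40.3, 40.2 and 42.4 CPM in spinal cord. None of the 4 groups overlapped, and the region with the higher level was brain at E13.5 and spinal cord at P7. Cdkn2c rose by 1.18 ± 0.11 in brain (limma adjusted p = 2.0e-06, and 1.37 with TMM) and by 3.29 ± 0.11 in spinal cord (adjusted p = 3.1e-10). The brain minus spinal cord difference was 1.71 ± 0.11 at E13.5 (limma adjusted p = 4.1e-07) and -0.40 ± 0.11 at P7 (adjusted p = 0.019). With TMM the P7 difference was -0.21 and did not pass (limma adjusted p = 0.25). The age-by-region interaction, -2.12 ± 0.16 (limma adjusted p = 3.1e-06), was the largest of the 10 and was -1.93 with TMM.

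Cdkn2d (ENSMUSG00000096472, chromosome 9, 21288410 to 21291407, minus strand) encodes p19, an INK4 protein that also binds these kinases. It had 8.50, 11.2 and 10.7 CPM in E13.5 brain and 8.22, 9.25 and 9.62 CPM in E13.5 spinal cord. At P7 it had 15.0, 14.4 and 13.9 CPM in brain and 24.9, 25.0 and 22.9 CPM in spinal cord. The regions overlapped at E13.5, and all P7 libraries were above all E13.5 libraries. Cdkn2d rose by 1.38 ± 0.12 in spinal cord (limma adjusted p = 4.1e-07), and in brain its difference was 0.50 ± 0.12 (adjusted p = 0.0028), or 0.68 with TMM. At P7 the brain minus spinal cord difference was -0.73 ± 0.12 (limma adjusted p = 0.00068), or -0.55 with TMM, and at E13.5 it was 0.15 ± 0.12 (adjusted p = 0.36). Its age-by-region interaction was -0.88 ± 0.17 (limma adjusted p = 0.0013), under 2-fold.

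For each read of Cdkn2d there were 1.11 to 1.54 reads of Cdkn2c in E13.5 brain, 0.368 to 0.442 in E13.5 spinal cord, 1.90 to 2.28 in P7 brain and 1.61 to 1.85 in P7 spinal cord. E13.5 spinal cord was thus the only group in which Cdkn2d reads were the more numerous.

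Markers of newly formed OLs lay higher in the P7 libraries as well, and most in spinal cord. The 12 listed genes summed to 366.3 to 520.2 CPM in brain and 296.2 to 351.4 in spinal cord at E13.5, and to 3232 to 6722 in brain and 23070 to 30650 in spinal cord at P7. With age 10 rose and 1 fell in brain, beside 11.0% and 16.7% of all genes, and 12 rose in spinal cord, beside 16.9%. At P7 10 were lower in brain than in spinal cord (8 with TMM, edgeR or voom), beside 4.35% of all genes as deposited. Mag, a myelin protein gene, had means of 1.95 CPM in brain and 0.66 in spinal cord at E13.5, against 147 and 2144 at P7. The part of these cells in the levels of Cdkn2c, Cdkn2d and Cdkn1c was not tested.

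The stretches before the INK4 starts are shown because these genes rose with age in spinal cord. For Cdkn2c it is the window of the inner of its 2 RefSeq starts (chr4:109665373-109665609, minus strand), since the window of the outer start lies inside an annotated exon, and for Cdkn2d it is the 52 bases outside annotated exons (chr9:21291408-21291459, minus strand), both in GRCm38.p6 and written 5′ to 3′ on the gene's strand.
Cdkn2c: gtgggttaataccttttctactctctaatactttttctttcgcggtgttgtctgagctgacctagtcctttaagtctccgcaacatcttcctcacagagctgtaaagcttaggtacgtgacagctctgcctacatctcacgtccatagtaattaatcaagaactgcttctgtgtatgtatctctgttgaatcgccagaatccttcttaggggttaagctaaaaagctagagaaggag
Cdkn2d: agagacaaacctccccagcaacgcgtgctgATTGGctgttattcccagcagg
The capitals in Cdkn2d mark 1 CCAAT box read on the opposite strand, and the printed window of Cdkn2c holds none of the motifs searched. The 250 bases before the outer Cdkn2c start hold 3 GC boxes, and those before the Cdkn2d start also 3, all outside the printed bases.

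The interaction was negative for all 10 genes, under the deposited scaling and under TMM. Over all tested genes its median was -0.24, or -0.07 with TMM and 0.056 with median-ratio scaling. The share of negative values among all genes was not counted. A negative value means that the P7 minus E13.5 difference was lower in brain than in spinal cord. It was called for Cdkn2c, Cdkn1c and Ccnd1, and passed the adjusted p below 2-fold for Cdk4, Cdkn2d, Ccnd3, Ccnd2 and Cdkn1b, at -0.92, -0.88, -0.85, -0.83 and -0.55. With TMM Cdkn1b did not pass (-0.35, limma adjusted p = 0.19). With edgeR neither Cdkn1b nor Ccnd3 passed (edgeR adjusted p = 0.28 and 0.061). Cdkn1a and Cdk6, at -0.59 ± 0.33 and -0.49 ± 0.25, did not pass (limma adjusted p = 0.18 and 0.13). The 3 called genes reached their values differently. Ccnd1 and Cdkn2c were higher in brain at E13.5 and had P7 differences of -0.12 and -0.40, whereas Cdkn1c had a difference of -0.40 at E13.5 and -2.11 at P7.

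**Figure D3:**
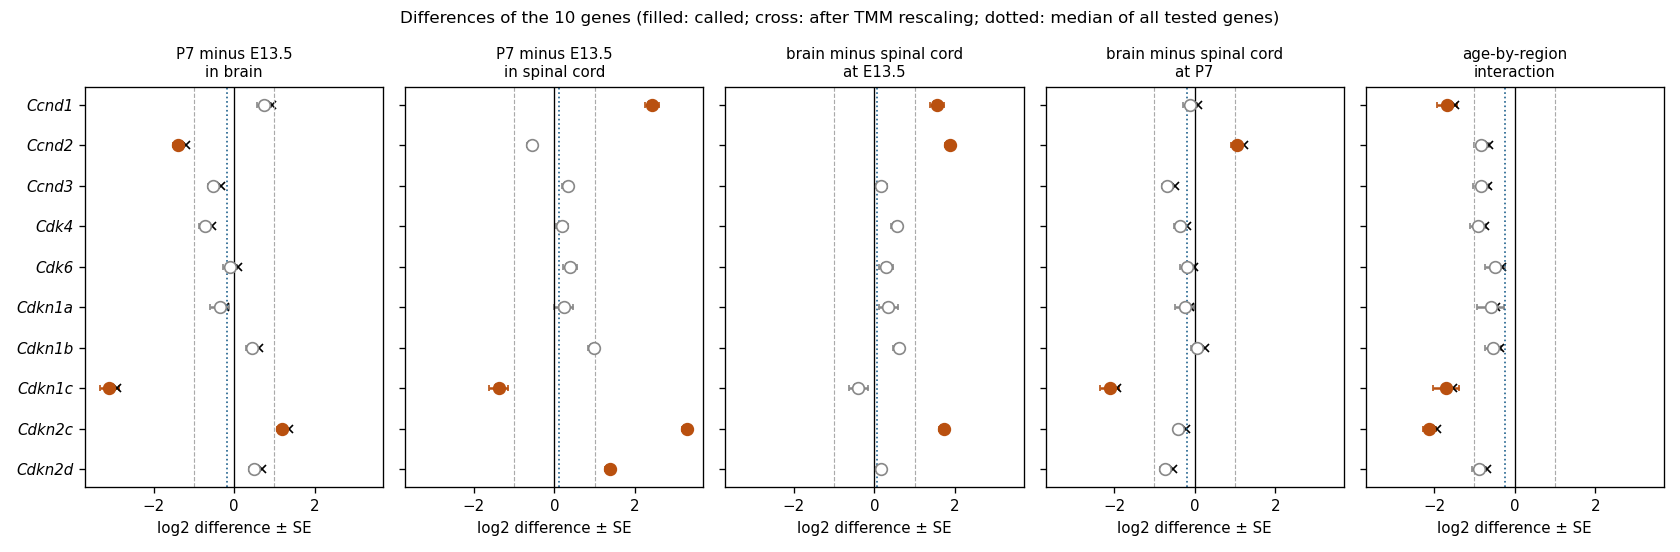
Difference on the log2(CPM + 0.5) scale for each of the 10 genes in each of the 5 comparisons, with points as limma estimates (filled where called), bars as standard errors, crosses as the values with TMM, dashed lines at 2-fold and a dotted line at the median of all tested genes. For the age-by-region interaction, all 10 points lie below 0, from -0.49 (Cdk6) to -2.12 (Cdkn2c).

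Other genes of the G1 to S transition were taken from a list of 35, of which 33 were tested. In brain 8 of the 33 fell with age and 0 rose (6 and 1 with TMM, 6 and 2 with edgeR), with a median of -0.53 (all genes -0.19) or -0.34 with TMM. Of all tested genes 16.7% fell and 11.0% rose in this comparison. Without the 2-fold requirement 21 were lower and 6 higher at P7, where 61.3% of all genes passed in either direction. E2f7, which encodes a repressor E2F, fell by 2.29 ± 0.22 (limma adjusted p = 1.7e-06), and Cks1b, a CDK-binding subunit that helps degrade p27, fell by 1.98 ± 0.21 (adjusted p = 3.8e-06). Ccne1, Ccne2, Cdc25a, E2f1, E2f8 and Skp2 also fell. In spinal cord 7 rose and 0 fell (6 and 2 with edgeR, and 15 and 7 at any fold with limma), with a median of 0.23 (all genes 0.12), led by Ccng1 at 1.56 ± 0.11 (limma adjusted p = 7.2e-08) and Myc at 1.38 ± 0.17 (adjusted p = 1.0e-05). Cdkn2b, Rbl2, E2f2, Tfdp1 and Ccnc also rose, Cdkn2b from a low mean of 0.428 CPM to 1.46 CPM. In spinal cord 16.9% of all tested genes rose, 18.2% fell and 70.0% passed at any fold.

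Between the regions 1 of the 33 was called at E13.5, Cks1b, at 1.19 ± 0.21 (limma adjusted p = 0.00083), with a list median of 0.45. At P7 2 were lower in brain, Cdkn2b, which encodes the INK4 inhibitor p15, at -1.23 ± 0.22 (limma adjusted p = 0.0016), and E2f2 at -1.02 ± 0.12 (adjusted p = 7.8e-05), with a list median of -0.34, or -0.15 with TMM. E2f2 was not called with TMM, edgeR or voom, at -0.84 in each. At any fold brain exceeded spinal cord in 17 of the 33 and fell below it in 2 at E13.5, against 1 and 17 at P7 (2 and 6 with TMM). Of all genes 8.71% were called at E13.5 and 6.62% at P7, and 32.6% and 30.0% passed at any fold. The age-by-region interaction was called in 13 of the 33, each negative, with a median of -0.80 beside -0.24 over all genes, and E2f2 had the lowest value, -1.92 ± 0.17 (limma adjusted p = 9.2e-06). With TMM 6 of the 33 were called and the median was -0.62. As deposited, 9.66% of all genes were called negative and 6.66% positive for this interaction. Cdkn2a, which encodes p16 and p19ARF, was at 0 in every E13.5 brain library and at most at 0.434 CPM elsewhere, under the filter.

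All 18 listed genes of S phase and mitosis were lower at P7 than at E13.5 in brain by the limma adjusted p at any fold, and all 18 were higher in brain than in spinal cord at E13.5. Together they summed to 2965 to 3070 CPM in brain and 1321 to 1395 in spinal cord at E13.5, and to 1236 to 1573 in brain and 1993 to 2159 in spinal cord at P7. In brain 12 of the 18 fell by over 2-fold with age, but 3 with TMM, since the median was -1.09 and with TMM -0.90, and Bub1, a mitotic checkpoint kinase gene, fell by 1.54 ± 0.12 (limma adjusted p = 2.4e-07). In spinal cord 3 rose and 0 fell (14 and 0 at any fold), with a median of 0.59, and Ccna2, the cyclin of S phase, rose by 1.27 ± 0.13 (limma adjusted p = 1.7e-06). At E13.5 13 were higher in brain, with Rrm2, a ribonucleotide reductase gene, at 1.68 ± 0.12 (limma adjusted p = 7.2e-07), and the list median was 1.14. At P7 0 were called by limma, edgeR or voom, although 17 were lower in brain at any fold by the limma adjusted p (5 with TMM and 3 with edgeR), with a median of -0.60. For the age-by-region interaction all 18 were called negative, with a median of -1.66, and with TMM 17 were called, with a median of -1.48. Of all tested genes 16.7% were called lower with age in brain and 16.9% higher in spinal cord. Of all tested genes 3.53% were called higher in brain at E13.5, 6.62% in either direction at P7, and 9.66% negative for the interaction. At any fold 61.3% of all tested genes passed for age in brain and 70.0% for age in spinal cord. For region 32.6% passed at E13.5 and 30.0% at P7.

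**Figure D4:**
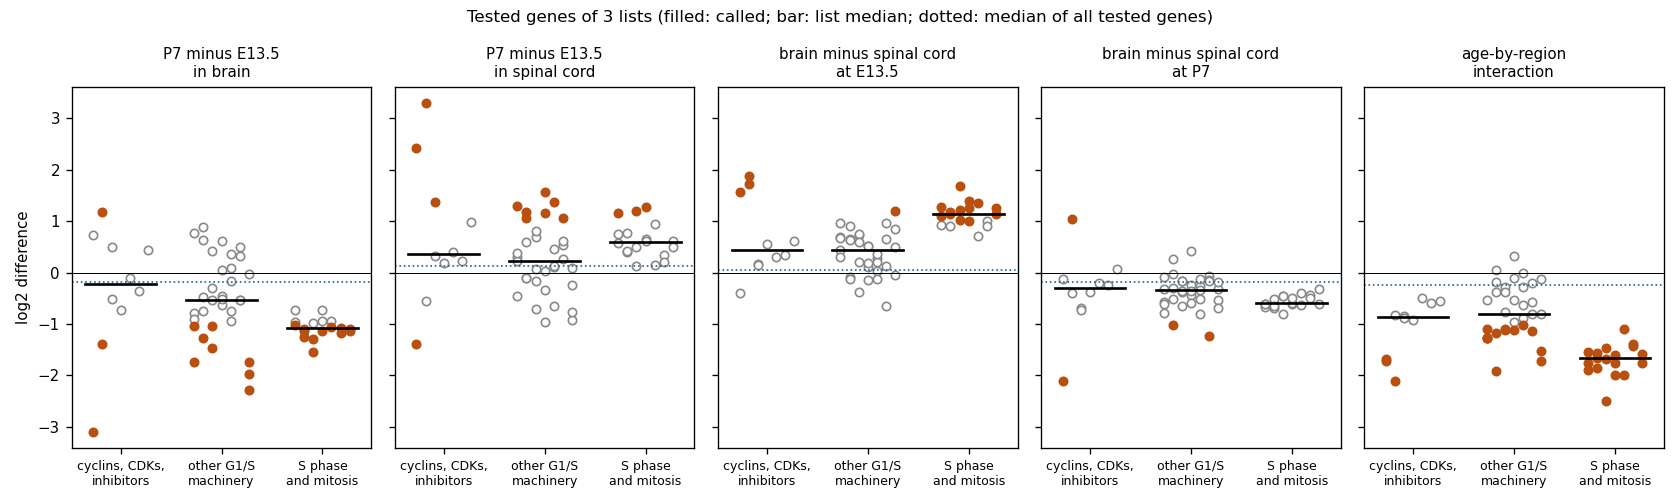
Difference on the log2(CPM + 0.5) scale of the tested genes of each list in each of the 5 comparisons, with 1 point per gene (filled where called), the list median as a bar and the median over all 18319 tested genes as a dotted line. For the age-by-region interaction, all 18 genes of S phase and mitosis lie below 0 and the medians are -0.87 for the 10 members, -0.80 for the other G1 to S genes and -1.66 for S phase and mitosis.

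Immediate early genes, which dissociation can induce, are given because the 2 ages were dissociated differently. Their sum (10 genes) was 265.5 to 686.7 CPM in brain and 175.9 to 486.0 in spinal cord at E13.5, and 124.6 to 154.5 in brain and 256.1 to 289.4 in spinal cord at P7. With age 9 of the 10 fell and 0 rose in brain, beside 16.7% and 11.0% of all genes. With TMM 7 fell and 1 rose there, the latter being Nr4a1 at 1.24. In spinal cord 3 fell and 1 rose, beside 18.2% and 16.9% of all genes. The part of dissociation in the member genes was not tested.

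Levels of different members can be set side by side only per length, here as mean CPM per kilobase of the longest coding transcript. In E13.5 brain the order ran from Cdk4 (152 ± 9.80, SD, n = 3) and Cdkn1c (150 ± 47.0) through Ccnd2 (46.6), Ccnd1 (40.7), Ccnd3 (28.9), Cdkn1b (17.2), Cdkn2d (7.12), Cdkn2c (5.42) and Cdk6 (5.30) to Cdkn1a (0.607). Neighbours whose libraries overlapped were Cdk4 and Cdkn1c, Ccnd2 and Ccnd1, Ccnd1 and Ccnd3, and Cdkn2c and Cdk6. In E13.5 spinal cord Cdkn1c (197 ± 60.1) led, followed by Cdk4 (105 ± 26.6), Ccnd3 (26.1), Ccnd1 (13.7), Ccnd2 (12.5), Cdkn1b (11.2), Cdkn2d (6.34), Cdk6 (4.44), Cdkn2c (1.51) and Cdkn1a (0.438). There Ccnd1 overlapped with Ccnd2, and Ccnd2 with Cdkn1b.

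In P7 brain the order was Cdk4 (90.9 ± 3.18), Ccnd1 (67.2 ± 5.53), Cdkn1b (23.0), Ccnd3 (20.0), Ccnd2 (17.7), Cdkn1c (16.9), Cdkn2c (12.5), Cdkn2d (10.1), Cdk6 (4.94) and Cdkn1a (0.411), of which Ccnd2 and Cdkn1c overlapped. In P7 spinal cord it was Cdk4 (118 ± 3.37), Cdkn1c (73.3 ± 3.18), Ccnd1 (73.1 ± 10.7), Ccnd3 (32.3), Cdkn1b (22.0), Cdkn2d (17.1), Cdkn2c (16.6), Ccnd2 (8.51), Cdk6 (5.67) and Cdkn1a (0.529), with overlaps between Cdkn1c and Ccnd1 and between Cdkn2d and Cdkn2c. Cdkn1c thus stood among the first 2 of the 10 in 3 groups and was the sixth in P7 brain. Which transcript is used was not measured, and the order depends on that length: over the joined exons of all transcripts Ccnd3 was the 6th in order in both E13.5 groups, the 8th in P7 brain and the 7th in P7 spinal cord.

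Some members share exon bases with a gene on the opposite strand, and whether the counting used the strand is not given in the sources used here. Cdk4 shares 641 bases with Tspan31 (mean 62.0 CPM over all libraries), Ccnd3 shares 361 with Bysl (26.7 CPM) and Ccnd1 shares 1100 with LTO1 (17.1 CPM). The genes overlapping Ccnd2 and Cdk6 had means of at most 0.389 CPM. Reads of Ccnd3 may also be split with its pseudogene Ccnd3-ps, at a mean of 0.376 CPM.

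The genes whose levels ran most like each member over the 12 libraries were found by Pearson's r of log2(CPM + 0.5) among 13512 protein-coding genes, as a description, since the libraries fall into 4 groups and share their scaling. Cdkn2c was most like Mettl4 (r = 0.993), Lsm6 (0.993) and Etv5 (0.992), and Cdkn2d most like Cldnd1 (0.992), Vipas39 (0.992) and Map2k1 (0.990). Etv5 encodes an ETS factor and Map2k1 the kinase MEK1, both of the MAPK pathway. Ccnd1 was most like Cap2 (0.988), Spry1 (0.987), a feedback inhibitor of receptor tyrosine kinase signalling, and Eif1ax (0.987). For Ccnd2 the nearest were Sox4 (0.980), a factor of immature neural cells, Filip1 (0.980) and Msx1 (0.973). Cdkn1c ran nearest to Morf4l1 (0.981), Ift46 (0.979) and Snd1 (0.979), and Cdkn1b to Gabra2 (0.984), Zyg11b (0.969) and Gdap1 (0.962). The nearest of Cdk4 were Snrpb2 (0.984), Ywhaz (0.970) and Prelid1 (0.970), those of Cdk6 included Phf10 (0.968) and Zzz3 (0.960), and those of Ccnd3 were Sfrp2 (0.968), Hebp1 (0.968) and Cdc34 (0.955). Cdkn1a, with its few reads, had the lowest values, with Zfp408 (0.886), Ddx42 (0.866) and Oxsr1 (0.858).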

How the data were processed

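Pdgfra/GFP+ cells were profiled by stranded total RNA-seq in 12 libraries (4 groups of 3, taken from the labels). According to the methods and processing notes, reads were aligned to mm10 with STAR 2.5.0a and counted with featureCounts 1.5.0-p1, and the notes also name HISAT2 2.0.5 and StringTie 1.3.1c. The deposited values are CPM, that is, reads scaled to a library size that the authors adjusted. In 3 libraries the deposited column sums to more than CPM allows, so it was treated as a scaled signal of the same kind. Whole reads were recovered for 100.0% of values (tolerance 0.001).

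limma 3.58.1 (R 4.3.3) with an intensity trend was fitted to log2(CPM + 0.5) of the 18319 genes with at least 0.7 CPM in 3 or more libraries, with 1 mean per group and all 12 libraries, and Benjamini-Hochberg adjustment over all genes. edgeR 4.0.16 and limma-voom on the recovered reads, TMM and DESeq2 1.42.0 median-ratio scaling, other filters and pseudocounts, and leaving out each library were alternatives, and the code was tested on simulated data. Symbols, coordinates and lengths come from GENCODE (GRCm38) and promoters from RefSeq (GRCm38.p6). The 10 genes were set beforehand and all are named. In each list the 2 called genes with the largest rise and fall, among those with at least 1 CPM, could be named, and further ones were added after their values were seen. One gene among the nearest neighbours is not reported here. Members and lists were chosen with earlier results of these data known. CPM intervals were not computed, and the read floor covers counting error only.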

Additional observations from a re-analysis of the deposited data

Results flagged for a closer look

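For 3 genes the difference between brain and spinal cord changed with age by a test of the change itself (limma). For Ccnd1 the change was -1.68 on the log2 scale, for Cdkn1c -1.71 and for Cdkn2c -2.12. Each kept its direction and its call under TMM scaling, with edgeR and with voom. Of all tested genes 16.3% were called in this comparison.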

How the results depend on the processing

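Under the alternatives to the reported fit, the differences of the 10 genes mostly kept direction and call, in 595 values with 1 library left out (1 reversed, 3 gained a call, 1 lost it) and in 560 under other settings (13 reversed, 1 gained, 1 lost). Near 0 the sign depended on the scaling. Cdk6 for age in brain (-0.10 as reported) was 0.091 with TMM, 0.093 with median-ratio scaling, 0.10 with voom and 0.10 with edgeR. Ccnd1 for region at P7 (-0.12) was 0.075 with TMM, 0.12 with median-ratio scaling, 0.11 with voom, 0.10 with edgeR, and -0.19 to 0.00049 with 1 library left out, the highest without P7 spinal cord replicate 3. Cdk6 for region at P7 (-0.20) was 0.039 with median-ratio scaling, 0.026 with voom and 0.025 with edgeR. TMM together with leaving out E13.5 spinal cord replicate 3, chosen after seeing the data, gave 0.091 for Cdk6 and 0.075 for Ccnd1 in the first 2 of these.

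Counts of called members with 1 library left out were 3 to 3 for age in brain, 4 to 5 for age in spinal cord, 3 to 3 for region at E13.5, 1 to 2 for region at P7 (1 also with P7 replicates 1 and 2, which were unusually alike, averaged) and 3 to 5 for the age-by-region interaction, where 5 came without E13.5 spinal cord replicate 3. The counts of the other G1 to S genes were 6 to 8, 6 to 7, 1 to 3, 1 to 2 and 10 to 13. For region at E13.5 (1 reported) they were 2 with a pseudocount of 0.1, 3 with voom, 2 with edgeR and 3 with the added alternative. For region at P7 (2 reported) they were 0 with a pseudocount of 1, and 1 with a filter of 2 CPM, TMM, median-ratio scaling, voom, edgeR and the added alternative. For the age-by-region interaction (13 reported) they were 6 with TMM, 3 with median-ratio scaling and 6 with edgeR. Cdkn1a gave no value with the 2 CPM filter.

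At E13.5 same-numbered libraries of the 2 regions correlated at 0.082 to 0.412, and those with different numbers at -0.436 to 0.203. At P7 the ranges were 0.013 to 0.044 and -0.057 to 0.063. At each age 4 of 6 libraries correlated best with their own number, and whether the numbers pair the samples was not settled. Fitting the replicate number as a block gave called members of 3, 4, 3, 2 and 3 in the order above, and the other G1 to S genes 8, 7, 1, 2 and 12. Read numbers were lowest for Cdkn1a in all groups and for Cdkn2c in E13.5 spinal cord.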
